A study of Mus musculus with 6 samples.

Results

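The genes examined here encode the machinery that fills nerve terminals with synaptic vesicles, docks and fuses them at the active zone and retrieves them afterwards. They were taken by name from a list of 30 genes of vesicle membranes, SNARE proteins, the active zone and vesicle endocytosis, and every probe set annotated to 1 of them on the array was included. This gave 79 probe sets of the 45037 on the array that are not controls. Of these, 70 were bright enough to be tested, and they stood for 29 of the 30 genes. Sv2c, a vesicle glycoprotein gene, had 1 probe set, which was not tested. The 9 probe sets that were not tested had signals of 1.04 to 147 over all arrays.

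The series compared whole spinal cords of naive C57Bl/6 mice, all male, untreated and 4 months old. Of these, 3 were wild type and 3 carried the Nogo-A KO, and each animal had its own Affymetrix Mouse 430 2.0 array. The protein Nogo-A, found on oligodendrocytes and on some neurons, restrains the growth of axons. The labels give neither the targeting construct nor the breeding of the knockout line. Numbers given as signals are MAS 5.0 intensities in arbitrary units, which have the same trimmed mean on every array. A gene is represented by its brightest tested probe set, and a difference is knockout minus wild type on the log2 scale. Signals of different probe sets are not comparable as amounts of RNA, and in whole cord fewer cells of a type and less RNA per cell cannot be told apart.

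A synaptic vesicle is held in a cluster by synapsins, brought to the release site by Rab3 and active zone scaffolds, and primed when the vesicle SNARE synaptobrevin pairs with syntaxin and SNAP-25 on the plasma membrane. Calcium entering the terminal binds synaptotagmin, the SNARE complex closes, and the membranes fuse. The ATPase NSF and its adaptors then take the complex apart, and clathrin adaptors, dynamin and synaptojanin return the membrane to the pool. Where neurons of the spinal cord express these genes, the mRNA lies mainly in the cell bodies of motor neurons and interneurons themselves. Arrays of whole cord do not tell which cells the signal of a gene such as Ap2a1 or Nsf comes from. The mRNA for terminals of fibres that descend from the brain or enter from dorsal root ganglia lies mainly outside the cord.

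The promoters of these genes were mostly rich in CG dinucleotides. Of the 30 genes, 26 matched RefSeq promoter windows of build GRCm38.p6, which run from 250 bases before to 50 bases after a gene's start, with 34 windows in all. The median window held 19 CG dinucleotides, against 7 over all 32851 windows, and had 61.7% G and C against 52.7%. A GC box, searched as GGGCGG on both strands, lay in 21 of 34 windows (61.8%), against 35.7% of all windows. The TATA box letters TATAAA were in 2 windows (5.88%, against 13.6%), both of Sv2b, and CCAAT was in 8 (23.5%, against 37.4%). The cAMP response element letters TGACGTCA were in 1, that of Syn1 (all windows: 1.79%). These matches are descriptions of letters and not of binding. The 250 bases before the start are shown for Ap2a1, Vamp1 and Syn1, all higher in knockout at an unadjusted p under 0.05, with capitals for GC boxes and CCAAT boxes in the first 2 and for the cAMP response element in Syn1. They lie at chr7:44929491-44929740, minus strand, at chr6:125215331-125215580, plus strand, and at chrX:20920919-20921168, minus strand, in GRCm38.p6.
Ap2a1: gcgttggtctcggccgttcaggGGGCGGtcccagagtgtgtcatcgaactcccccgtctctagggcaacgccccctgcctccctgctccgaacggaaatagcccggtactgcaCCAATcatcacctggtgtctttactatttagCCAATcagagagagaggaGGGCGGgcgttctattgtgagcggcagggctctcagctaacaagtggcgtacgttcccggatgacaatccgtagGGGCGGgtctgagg
Vamp1: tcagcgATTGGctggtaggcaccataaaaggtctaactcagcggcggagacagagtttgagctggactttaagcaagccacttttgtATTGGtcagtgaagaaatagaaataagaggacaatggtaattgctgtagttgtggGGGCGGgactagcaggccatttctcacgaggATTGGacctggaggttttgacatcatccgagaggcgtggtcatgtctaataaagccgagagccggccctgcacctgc
Syn1: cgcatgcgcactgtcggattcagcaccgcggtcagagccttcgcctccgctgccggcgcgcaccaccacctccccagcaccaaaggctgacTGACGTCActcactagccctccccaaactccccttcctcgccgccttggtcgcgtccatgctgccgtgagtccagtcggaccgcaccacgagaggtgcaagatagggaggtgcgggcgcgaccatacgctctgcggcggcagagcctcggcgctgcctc

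Rtn4, the gene that encodes Nogo-A, had 5 tested probe sets, which did not go the same way. The probe set 1437224_at had signals of 3560.2, 2790.4 and 2802 in wild type and 78.2, 9.17 and 5.08 in knockout (limma, adjusted p = 0.0149). It was the 1 probe set of 23546 tested that passed an adjusted p under 0.05, or 0.00425%. The other 4 were higher in knockout without overlap, with differences of 0.40 to 0.70 on the log2 scale and adjusted p of 0.537 to 0.591 (limma), and the brightest of them, 1452649_at, read 19922, 21162 and 15477 in wild type and 24549, 24598 and 24730.5 in knockout. Which part of the transcript each probe set reads is not given in the sources used here. Dim signals differed between arrays: the 5th percentile was 5.26 to 20.0 in wild type and 4.57 to 4.91 in knockout. Wild type replicate 3 had the lowest mean correlation with the other arrays, 0.930 against 0.951 to 0.961. Skeletal muscle genes set wild type replicate 3 and knockout replicate 2 apart, with 10 markers summing to 8215 and 17648 there and to 1535 to 2657 on the other 4 arrays. Markers of the tissue were bright: all 12 neuron markers and all 9 measured oligodendrocyte markers lay above the array median on every array, while the 3 measured markers of sensory ganglion neurons, Avil, Scn10a and Trpv1, had signals of at most 192.

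No vesicle cycle gene passed the adjusted threshold of 0.05, and the smallest adjusted p of any of their probe sets was 0.591 (limma). The genes leaned slightly to higher signals in knockout. Of 29 genes, 23 had a difference above 0, as did 6503 of all 11651 genes tested. The median of the 29 was 0.095 on the log2 scale, a fold of 1.07, against 0.028 over all genes. Under quantile normalization the count above 0 was 17 of 29 and the median 0.051, and without wild type replicate 3 they were 18 and 0.064. At an unadjusted p under 0.05, 6 genes were higher in knockout, where 4.93% of all genes were, and 0 were lower, where 3.24% were (limma). The 6 were Ap2a1, Dnm1, Nsf, Vamp1, Syn1 and Syp. Without the intensity trend in limma, Ap2a1 alone was higher at an unadjusted p under 0.05, where 3.00% of all genes were. The knockout values lay above all wild type values in 12 genes, where 9.05% of all genes did so, and below them in 0, where 5.36% did so.

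Much of this lean was shared by other bright genes. Of the 29 genes, 22 were among the brightest 25% of all genes tested. Over these 2913 genes the median difference was 0.081, and 75.9% had a difference above 0. At an unadjusted p under 0.05, 9.30% were higher in knockout and 0.343% were lower (limma). In 17.4% all knockout values lay above all wild type values. Among the 22 vesicle cycle genes there, the median was 0.12, and 19 had a difference above 0. Of the 22, 5 were higher at an unadjusted p under 0.05, 10 had values without overlap, and 15 lay above the median of those 2913. Quantile normalization, which gives all arrays the same distribution, brought the median of the 2913 genes to 0.0080 and left Ap2a1 as the 1 vesicle cycle gene of 29 higher at an unadjusted p under 0.05, where 3.91% of all genes were (limma). Under it 3 of 29, Amph, Ap2a1 and Syn2, had higher values and no overlap, where 7.37% of all genes and 6.25% of the 2913 did. Both counts are near those shares. Rab3a was then lower at an unadjusted p under 0.05, where 2.53% of all genes were (limma), and Syt4 was lower without overlap, where 5.32% were. With arrays left out, the count of 6 and the share of all genes both moved: they were 3 genes and 3.39% without wild type replicate 2, 3 genes and 2.54% without knockout replicate 1, and 2 genes and 1.89% without knockout replicate 3. Without both arrays with muscle signal the count was 6, where 8.41% of all genes were higher. How far array scaling entered the differences of single genes was not tested beyond these settings.

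**Figure D1:**
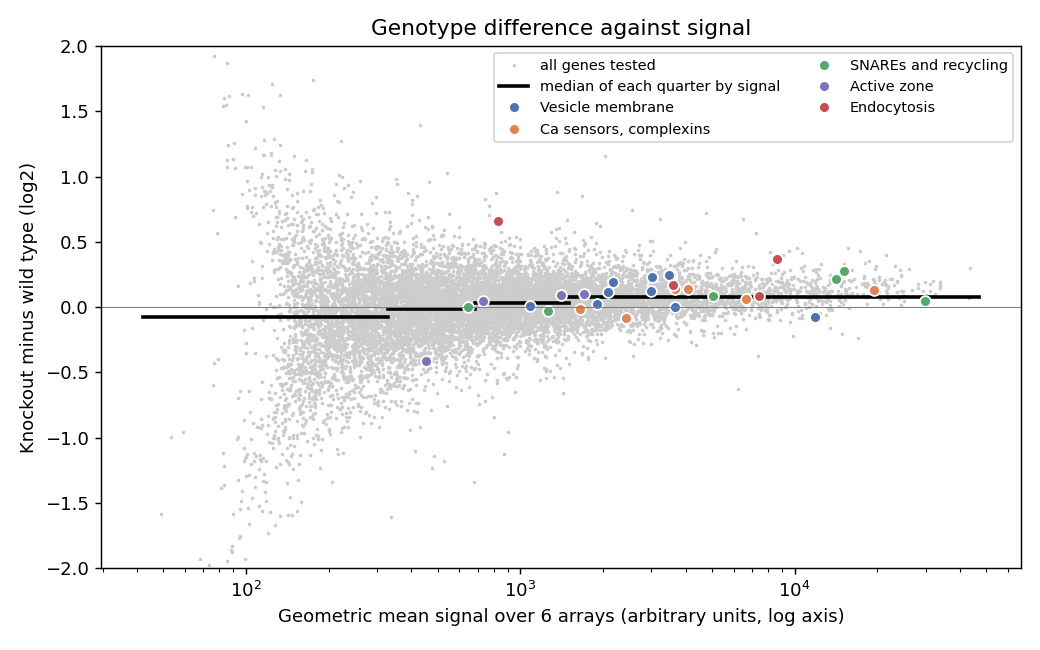
Difference between genotypes on the log2 scale against the geometric mean signal (log axis) for all 11651 genes tested in grey and the 29 vesicle cycle genes in colour by role, with black bars for the median of each 25% of genes by signal. The black bars step from -0.074 in the dimmest 25% to 0.081 in the brightest, where 22 of the coloured points lie, and 19 grey points lie outside the axis limits of 2 either way.

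At the brightest probe set of each gene, and only under the deposited scaling, the arrays bound how large an unseen difference could be. Division by the array median moved the median difference of the 29 genes from 0.095 to 0.32. Intervals under that scaling are not given here. The 95% interval of the difference had a median half-width of 0.23 on the log2 scale, and in 26 of 29 genes it lay within a change of 1.5-fold either way. The 3 exceptions were Ap2a1 and Dnm1, whose intervals reached beyond it on the higher side, and Unc13a, whose interval did so on the lower side. Dimmer probe sets of some of the 26 genes were not bounded in this way. Examples are 1447763_at of Snap25, at -1.26 to -0.17, and 1449030_at of Syn2, at 0.077 to 0.66. Within a genotype the animals differed little, with a median standard deviation of 0.12 on the log2 scale for these genes, 0.12 for the brightest 25% of genes and 0.19 for all genes.

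**Figure D2:**
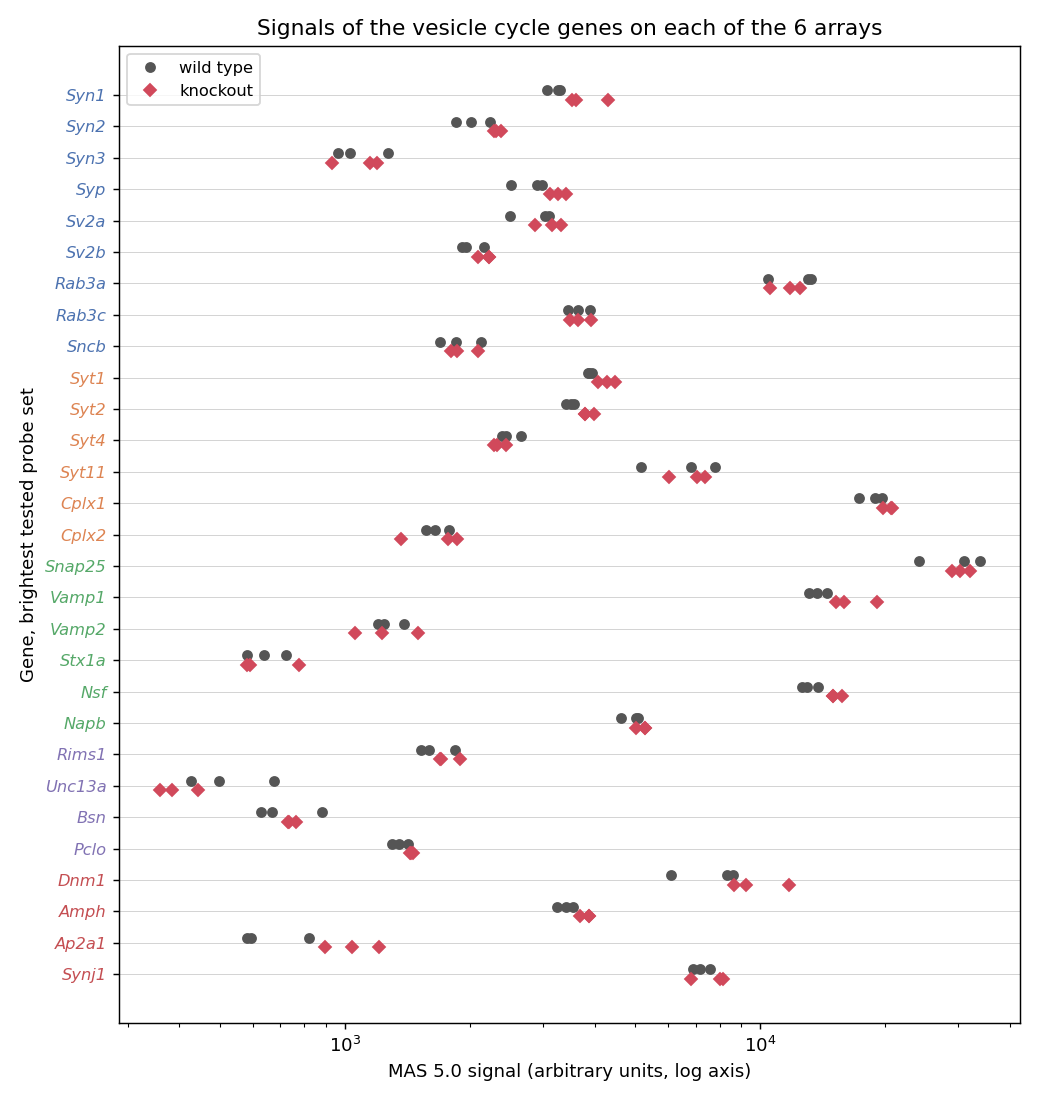
MAS 5.0 signal (log axis) of the brightest tested probe set of each of the 29 genes on the 3 wild type arrays (grey circles) and 3 knockout arrays (red diamonds), with gene names coloured by role as in the plot of differences. In 12 genes every diamond lies to the right of every circle, and in the other 17 the genotypes overlap.

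Among genes of the vesicle membrane, 8 of 9 tested had a difference above 0, with a median of 0.12 (0.052 under quantile normalization, with 5 above 0), and Syn1 and Syp were higher at an unadjusted p under 0.05. Synapsin I, the product of Syn1, ties vesicles to each other and to actin. Its signals at 1451484_a_at were 3264, 3079 and 3295 in wild type and 3605, 3522 and 4314 in knockout. All 3 knockout animals lay above all 3 wild type animals, with knockout replicate 3 the highest. The difference was 0.24 (95% interval 0.013 to 0.47; limma adjusted p = 0.598), a fold of 1.18. Without knockout replicate 3 it was 0.15, at an unadjusted p above 0.05 (limma), and under quantile normalization 0.17, also above 0.05. The unadjusted p of Syn1 was above 0.05 as well without wild type replicate 1, wild type replicate 2 or knockout replicate 1. It stayed under 0.05 in 11 of the 17 other limma settings. Synaptophysin, from Syp, is the most widely used marker of the vesicle membrane. Syp read 2979, 2515 and 2909 in wild type and 3271, 3130.2 and 3414 in knockout at 1448280_at, with wild type replicate 2 the lowest and no overlap. Its difference was 0.23 (0.0039 to 0.45; limma adjusted p = 0.599). Under quantile normalization it was 0.16 and without wild type replicate 2 0.15, both at an unadjusted p above 0.05. The unadjusted p of Syp was also above 0.05 when any 1 of the knockout arrays was left out. It stayed under 0.05 in 11 of the 17 other limma settings.

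Syn2 and Syn3 encode the other synapsins, and probe sets of each differed among themselves. For Syn2, the 4 tested probe sets had differences of 0.016 to 0.37. The brightest read 2245, 2017 and 1855 in wild type and 2381, 2292 and 2312 in knockout, without overlap and with a difference of 0.20 (-0.035 to 0.43; limma adjusted p = 0.640). The next brightest read 1975, 1986 and 1860.2 in wild type and 2116, 1869 and 1907 in knockout, with overlap and a difference of 0.016. The third, 1449030_at, read 1409.8, 1066 and 1361 in wild type and 1573, 1558 and 1798 in knockout, again without overlap, with a difference of 0.37 (0.077 to 0.66; limma adjusted p = 0.591), at an unadjusted p under 0.05. Syn3 gave a difference of 0.0073 at its brightest probe set, which read 1032, 1275 and 963 in wild type and 1199, 1148 and 934 in knockout. A dim one, 1421248_at, read 126, 28.8 and 51.7 in wild type and 154, 136 and 224 in knockout, a difference of 1.55 (0.17 to 2.93; limma adjusted p = 0.595). This probe set was bright enough to be tested through knockout alone, since every wild type value lay below the median of its array. Array medians were 144 to 195. The filter thus favoured a higher knockout value here, and the difference is given as a description only. The 2 brighter probe sets of Syn3 did not follow it.

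The remaining vesicle membrane genes overlapped between genotypes at their brightest probe sets. Sv2a and Sv2b, vesicle glycoproteins of which SV2A binds the drug levetiracetam, had differences of 0.12 (-0.13 to 0.37) and 0.12 (-0.10 to 0.34). The dimmer probe set of Sv2b, 1435687_at, read 1578, 1382 and 1629.7 in wild type and 1783, 1671 and 1682 in knockout, without overlap and with a difference of 0.17 (-0.075 to 0.41; limma adjusted p = 0.689). Sv2c read 65.9, 16.1 and 147 in wild type and 58.1, 124 and 64.0 in knockout and was not tested. Rab3a and Rab3c encode GTPases that couple vesicles to the active zone. Rab3c had a difference of 0.0042. Rab3a differed between its probe sets. The brightest, 1459980_x_at, read 13249.9, 13055 and 10485 in wild type and 10578, 12509 and 11788 in knockout, a difference of -0.073. The other, 1422589_at, read 5822, 4644 and 6200.2 in wild type and 7085, 5849 and 7136 in knockout, a difference of 0.27 (-0.00030 to 0.55; limma adjusted p = 0.601). By the maker's naming, a probe set ending in x_at holds probes that can match other transcripts, and the brightest ones of Rab3a, Syt11 and Stx1a are of this kind. Sncb, which encodes beta-synuclein, a soluble protein of terminals, had a difference of 0.022 (-0.24 to 0.28).

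**Figure D3:**
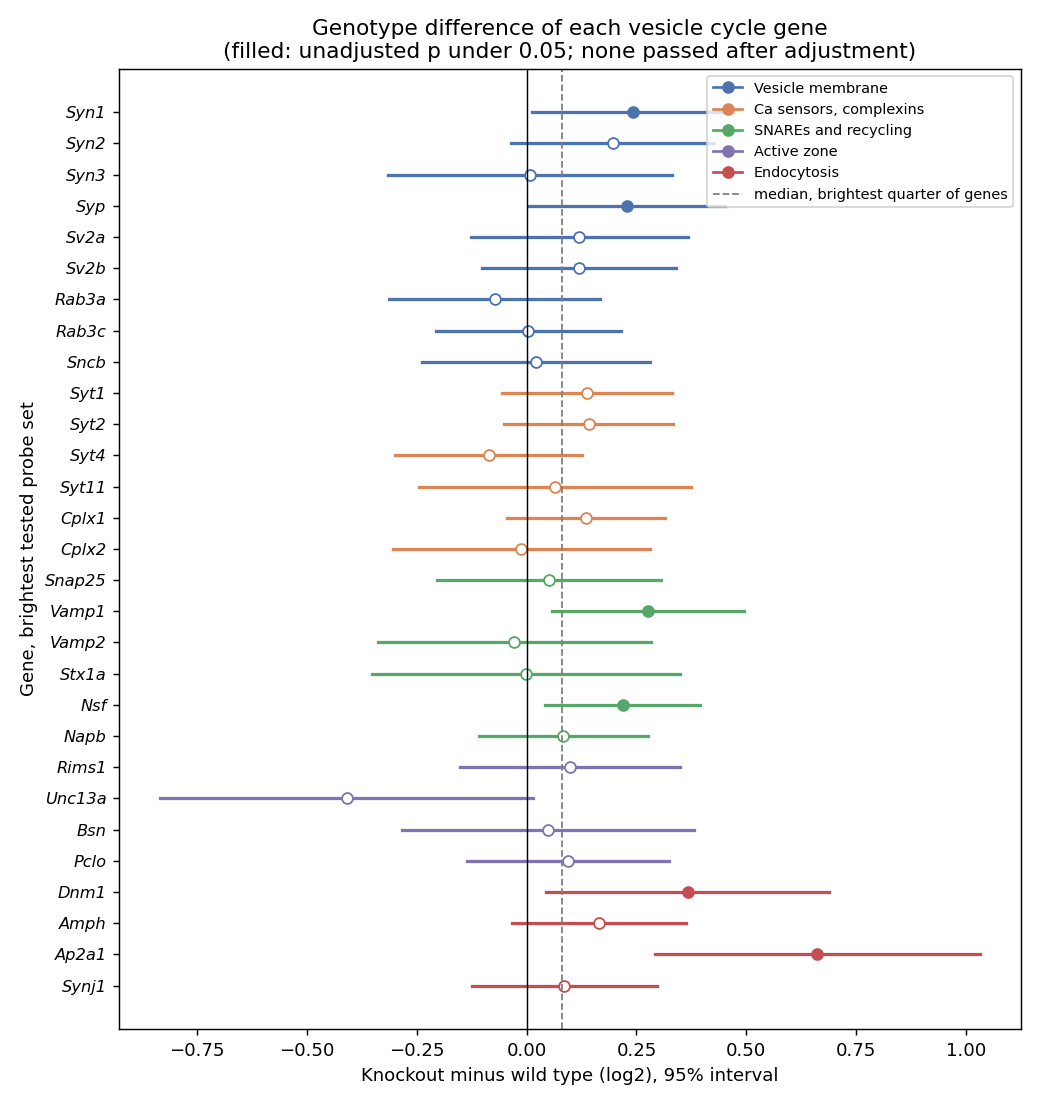
Difference between knockout and wild type on the log2 scale (points) with 95% limma intervals (lines) for the 29 genes, coloured by role, with filled points at an unadjusted p under 0.05 and a dashed line at the median of the brightest 25% of genes, 0.081. Filled points are those of Ap2a1, Dnm1, Nsf, Vamp1, Syn1 and Syp, and the dashed line lies inside the intervals of all genes but Ap2a1 and Unc13a.

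The calcium sensors and complexins had no member at an unadjusted p under 0.05 in limma at the brightest probe set. Their median difference was 0.10, with 4 of 6 above 0, and -0.019 with 2 of 6 under quantile normalization. Synaptotagmin 1 and synaptotagmin 2 are the sensors that trigger fast release. Syt1 read 3942, 3882 and 3851 in wild type and 4066, 4295 and 4485 in knockout. Syt2 read 3566, 3499.6 and 3411 in wild type and 3792, 3787 and 3978 in knockout. Both had narrow wild type values with every knockout value above them, and differences of 0.14 and 0.14 (95% intervals -0.057 to 0.33 and -0.051 to 0.33; limma adjusted p = 0.683 and 0.676). Other probe sets did not separate the genotypes in this way. Those of Syt1 had -0.15, 0.30 and -0.035, and those of Syt2 -0.039 and 0.13.

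Syt4 and Syt11 encode synaptotagmins that do not serve as fast calcium sensors. Syt4 was the 1 gene of this group whose probe sets were both lower in knockout. The brighter, 1415845_at, read 2652, 2392 and 2448 in wild type and 2289, 2323 and 2442 in knockout, a difference of -0.086 (-0.30 to 0.13). The dimmer, 1415844_at, read 1724, 2194 and 1653 in wild type and 1596, 1436 and 1197 in knockout, with every knockout value below every wild type value and a difference of -0.40 (-0.71 to -0.078; limma adjusted p = 0.591). All 5 probe sets of Syt11 lay above 0, at 0.065 to 0.21, and none had an unadjusted p under 0.05. Complexins bind the assembled SNARE complex and both hold and promote fusion. Cplx1 was above 0 at all 3 probe sets, with 19634, 18924 and 17360.1 in wild type and 19826, 20773 and 20705 in knockout at the brightest, a difference of 0.13 that became -0.014 under quantile normalization. Both dimmer probe sets of Cplx1 had an unadjusted p under 0.05. The first, 1417746_at, read 11947, 12405 and 11486 in wild type and 14282, 13117 and 14772 in knockout, without overlap and with a difference of 0.23 (0.049 to 0.42; limma adjusted p = 0.591). The dimmest, 1417747_at, read 3993, 3726 and 4717 in wild type and 5301, 4686 and 5766 in knockout, a difference of 0.34 (0.090 to 0.60; limma adjusted p = 0.591). Cplx2 had -0.012 (-0.30 to 0.28) at its brightest probe set, where the genotypes overlapped. A dimmer one, 1455672_s_at, read 992, 1082 and 1098 in wild type and 1357, 1139 and 1448 in knockout, without overlap and with a difference of 0.31 (0.032 to 0.59; limma adjusted p = 0.595).

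Of the SNARE genes and those that recycle SNAREs, Vamp1 and Nsf were higher at an unadjusted p under 0.05, 4 of 6 lay above 0 and the median was 0.067 (0.0028 under quantile normalization). Vamp1 encodes synaptobrevin 1, the vesicle SNARE that prevails at motor nerve terminals. It read 14494, 13690.3 and 13111 in wild type and 15906, 15239 and 19091 in knockout at 1421863_at. The dimmer 1421862_a_at read 3218, 2660.1 and 3593 in wild type and 3998, 3746 and 4111 in knockout. Both probe sets separated the genotypes completely, with knockout above. The differences were 0.28 (0.059 to 0.50; limma adjusted p = 0.591) and 0.33 (0.076 to 0.59; limma adjusted p = 0.591), or 1.21-fold and 1.26-fold. At the brighter probe set the difference was 0.16 under quantile normalization and 0.18 without knockout replicate 3, which had the highest signal, both at an unadjusted p above 0.05. A further probe set annotated to Vamp1 together with another gene was left out. Vamp2, for synaptobrevin 2, read 1205, 1387 and 1240.5 in wild type and 1227, 1061 and 1504 in knockout at its brightest probe set, a difference of -0.028 (-0.34 to 0.28). The interval of Vamp1 and that of Vamp2 overlapped, and the difference between the 2 genes was not tested.

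The plasma membrane SNAREs showed no difference beyond the spread of the animals at their brightest probe sets. Snap25 read 31050.4, 33804 and 24216 in wild type and 30408, 32046 and 28943 in knockout, with wild type replicate 3 the lowest, and a difference of 0.050 (-0.21 to 0.31). Stx1a, for syntaxin 1A, read 583, 722 and 639.8 in wild type and 581, 592 and 778 in knockout, a difference of -0.0020 (-0.35 to 0.35). Each gene had a dim second probe set that was lower in knockout. That of Snap25, 1447763_at, read 382, 392 and 538 in wild type and 286, 344 and 187 in knockout, every knockout value below every wild type value, with a difference of -0.71 (-1.26 to -0.17; limma adjusted p = 0.591). That of Stx1a read 145, 251 and 233 in wild type and 192, 130.2 and 139 in knockout, with overlap and a difference of -0.43 (-1.16 to 0.30; limma adjusted p = 0.730). Wild type replicate 3, the array with the highest dim signals, had the highest value at this probe set of Snap25. The part of those dim signals in the difference was not tested.

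NSF is the ATPase that separates SNAREs after fusion, and its adaptors are the soluble NSF attachment proteins. Nsf read 13803, 12966 and 12611 in wild type and 15788, 15012 and 15008 in knockout at 1422456_at, with all knockout animals above all wild type animals, and a difference of 0.22 (0.042 to 0.40; limma adjusted p = 0.595). Its next probe set, 1422455_s_at, read 5682, 4595 and 4996 in wild type and 6083, 6026 and 5886 in knockout, again without overlap, and had 0.24 (0.027 to 0.46; limma adjusted p = 0.595), and a dim one had 0.22. Under quantile normalization the difference of Nsf was 0.10 and its unadjusted p was above 0.05 (limma), as it was without knockout replicate 1, at 0.19. Napb, the adaptor of the nervous system, had 5 tested probe sets with differences of -0.12 to 0.084, and the brightest read 5035, 5086 and 4618 in wild type and 5030.3, 5287 and 5294 in knockout. Napa, which encodes the widespread alpha form and is not one of the 30, read 3311, 3144 and 3063 in wild type and 3736, 3540.4 and 3932 in knockout, a difference of 0.24 (0.032 to 0.44; limma adjusted p = 0.595).

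**Figure D4:**
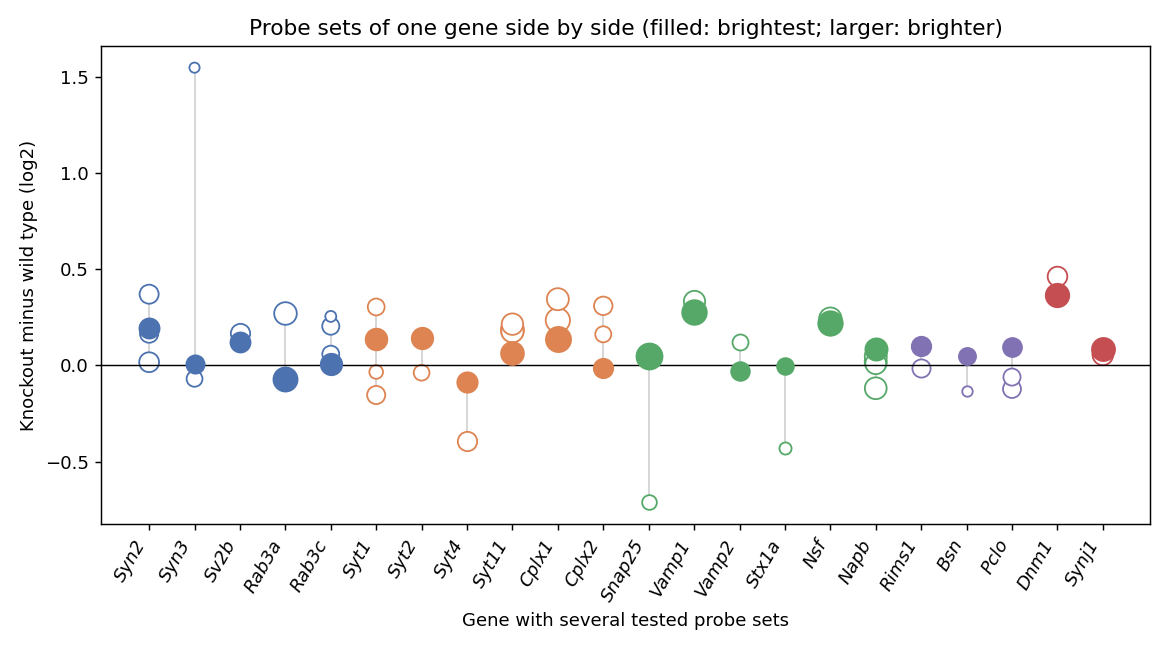
Difference between knockout and wild type on the log2 scale for every tested probe set of the 22 genes that had several, with the brightest filled, larger circles for brighter probe sets and colours by role. All probe sets lie above 0 in 9 genes and below 0 in 2, and in 11 genes they lie on both sides, with the widest span in Syn3, from -0.070 to 1.55. The upper end in Syn3 is a dim probe set, tested through knockout alone.

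Across all tested probe sets of the 30 genes, 14 of 70 were higher in knockout at an unadjusted p under 0.05, where 4.30% of all tested probe sets were, and 2 were lower, where 3.98% were (limma). The 14 include the dim probe set of Syn3, which was bright enough to be tested through knockout alone. Probe sets of 1 gene share its transcripts and are not independent. Of the 22 genes with several tested probe sets, Vamp1, Nsf, Dnm1 and Cplx1 had at least 2 at an unadjusted p under 0.05 in the same direction. The share of all genes with several tested probe sets that did so is not given here, so this is a description only.

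The active zone genes were read at moderate signals, and none reached an unadjusted p under 0.05. Their median was 0.072, with 3 of 4 above 0. Unc13a encodes Munc13-1, which opens syntaxin and primes vesicles. It read 498, 427 and 674 in wild type and 384, 443 and 359.6 in knockout at its 1 probe set, the lowest difference of the 29 genes at -0.41 (-0.83 to 0.014; limma adjusted p = 0.607). Wild type replicate 3 was the highest and wild type replicate 2 overlapped the knockout range. Without wild type replicate 3 its difference was -0.23, and without wild type replicate 2 it was -0.56. The scaffold genes Bsn and Pclo, for Bassoon and Piccolo, had 0.049 (-0.28 to 0.38) and 0.095 (-0.13 to 0.32). Pclo read 1348, 1423 and 1299.6 in wild type and 1463, 1439 and 1442 in knockout at the brightest probe set, a narrow separation that its other probe sets, at -0.12 and -0.061, did not show. Rims1, whose product binds Rab3 and calcium channels, had 0.10 (-0.15 to 0.35).

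Endocytosis genes had the highest median of the 5 roles, 0.27 over 4 genes, all above 0 (0.18 with 3 above 0 under quantile normalization), and Ap2a1 and Dnm1 were higher at an unadjusted p under 0.05. Ap2a1 encodes an alpha subunit of AP-2, the adaptor that links clathrin to membrane cargo. Its single probe set 1460724_at read 582, 596 and 819 in wild type and 1041, 897 and 1206 in knockout, with means of 666 ± 133 and 1048 ± 155 (SD, n = 3 per genotype). Every knockout animal lay above every wild type animal, and wild type replicate 3 came nearest to the knockout range. The difference was 0.66 (0.29 to 1.03; limma adjusted p = 0.591), a fold of 1.58 (95% interval 1.22 to 2.04). Over the 17 other settings in which limma was run, the unadjusted p stayed under 0.05 in 17, the difference ranged from 0.55 to 0.93 and the adjusted p from 0.0924 to 0.975, never under 0.05.

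The other subunits of AP-2, which are not among the 30 genes, gave mixed values. Ap2s1, the small subunit, read 2909, 2818 and 3225 in wild type and 3554, 3597 and 3750.1 in knockout, a difference of 0.29 (0.078 to 0.49; limma adjusted p = 0.591), and Ap2m1, the medium subunit, had 0.30 (0.016 to 0.59; limma adjusted p = 0.598), both without overlap. Ap2a2, the other alpha subunit, had -0.13 (-0.40 to 0.13), and Ap2b1, the beta subunit, -0.021 (-0.32 to 0.28).

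Dynamin 1, from Dnm1, pinches vesicles off the plasma membrane. Dnm1 read 8338, 6107 and 8601 in wild type and 9257, 8644 and 11737 in knockout at 1460365_a_at, with wild type replicate 2 low and knockout replicate 3 high. Its difference was 0.37 (0.045 to 0.69; limma adjusted p = 0.595). The dimmer probe set 1427754_a_at read 1668, 1100.5 and 1852 in wild type and 1849, 1758 and 2754 in knockout, with overlap and a difference of 0.47 (0.0080 to 0.92; limma adjusted p = 0.599). Without wild type replicate 2 the difference of Dnm1 was 0.21, without knockout replicate 3 it was 0.24 and under quantile normalization 0.26, all at an unadjusted p above 0.05. Amph, for amphiphysin, which recruits dynamin, read 3540.2, 3418 and 3252 in wild type and 3886, 3884 and 3678 in knockout, without overlap and with a difference of 0.17 (-0.032 to 0.36; limma adjusted p = 0.645). Synj1, the lipid phosphatase that strips clathrin coats, had 0.085 at the brightest of 3 probe sets, all above 0 and none at an unadjusted p under 0.05.

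Further genes of the pathway, from a list of 99 drawn up by function, had a similar centre. Of 87 tested, 61 lay above 0, against 6503 of all 11651 genes, and the median was 0.10. At an unadjusted p under 0.05, 12 were higher, where 4.93% of all genes were, and 2 were lower, where 3.24% were (limma). After adjustment 0 passed. The 4 with the smallest p on the higher side were, in that order, Snap47, a SNAP-25 relative, at 0.29, Rph3a, a Rab3 effector, at 0.45, Ap2s1, and Sncg, for gamma-synuclein, at 0.37 (limma adjusted p = 0.591 for each). The largest difference among the 12 was that of Atp6v0a1, a proton pump subunit, which read 1308, 728 and 1684 in wild type and 1925, 1479 and 2267 in knockout, a difference of 0.67 (0.10 to 1.24; limma adjusted p = 0.595). The smallest p on the lower side belonged to Ppfia1, an active zone scaffold of the liprin family, at -0.65, and Doc2b, a calcium sensor, which read 157, 187 and 352 in wild type and 144, 100.1 and 69.1 in knockout, a difference of -1.13 (-2.07 to -0.19; limma adjusted p = 0.595). Every knockout value of Doc2b lay below the median of its array, so it was bright enough to be tested through wild type alone. The filter thus favoured a lower knockout value here, and the difference of Doc2b is given as a description only. Ppfia1 and Doc2b were followed by Snap23 and Cacna1a at -0.29 and -0.34. By role, those at an unadjusted p under 0.05 were 4 of 13 transporters and proton pump subunits (all higher), 3 of 14 further membrane proteins (2 higher, 1 lower), 1 of 8 further synaptotagmins and complexins, 2 of 12 SNARE genes, 1 of 17 active zone genes (lower) and 3 of 23 endocytosis genes. The shares over all genes, 4.93% higher and 3.24% lower, apply to these small counts as well. The medians ran from -0.027 for active zone genes, of which 7 of 17 lay above 0, to 0.17 for transporters and pump subunits, of which 12 of 13 did. Among the latter, Slc32a1, which loads GABA and glycine into vesicles, read 2683, 2504 and 2682 in wild type and 3171, 2794 and 3401 in knockout. Slc17a6, the glutamate transporter of spinal neurons, had -0.050 (-0.24 to 0.14).

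Markers of neurons stood higher in knockout together with the vesicle genes. The median over the 29 vesicle cycle genes, relative to the wild type mean of each gene, was 0.072, -0.0066 and -0.061 in the 3 wild type animals, in order of their number, and 0.091, 0.11 and 0.15 in the 3 knockout animals. For 12 neuron markers it was 0.077, -0.0087 and -0.015 in wild type and 0.18, 0.13 and 0.25 in knockout. On both lists every knockout array lay above every wild type array, narrowly so for the vesicle cycle genes, and the same held for the brightest 25% of genes, at 0.075, 0.0053 and -0.080 and 0.079, 0.081 and 0.089. It also held, with smaller values, for all 11651 genes tested, at 0.0093, 0.00074 and 0.0084 in wild type and 0.039, 0.021 and 0.035 in knockout. This order of the arrays was thus not particular to vesicle cycle genes or neuron markers. Neuron markers summed to 113708 to 125393 in wild type and 130128 to 139995 in knockout. Of the 12, 11 had a difference above 0, as did 75.9% of the brightest 25% of genes. At an unadjusted p under 0.05, 5 of 12 (Rbfox3, Nefh, Eno2, Stmn2 and Uchl1) were higher, where 4.93% of all genes and 9.30% of the brightest 25% were (limma). Oligodendrocyte markers summed to 119729 to 127777 in wild type and 138215 to 151709.7 in knockout, with 3 of 9 higher at that p, beside the same shares. The brightest markers weigh most in such a sum, and Mbp had means of 39242 in wild type and 48421 in knockout. Of the 9, 6 had a difference above 0. Mog, Cldn11 and Ugt8a lay below it, at -0.039, -0.067 and -0.0025. Sums of 7 astrocyte markers overlapped, at 50746 to 56362 in wild type and 54860.0 to 56116 in knockout, as did those of 8 microglia markers, at 9071 to 12022 in wild type and 8990.4 to 10229 in knockout, although the microglia marker C1qa was lower at that p, with a difference of -0.40 (-0.77 to -0.027; limma adjusted p = 0.596). Of 5 connective tissue markers, Col1a1, Col1a2 and Dcn were higher and Lum was lower at that p, with sums of 6498 to 8227 in wild type and 8966 to 10321 in knockout. Over all genes, 4.93% were higher and 3.24% lower at that p (limma). The part of cell composition in the values of the vesicle cycle genes was not tested.

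**Figure D5:**
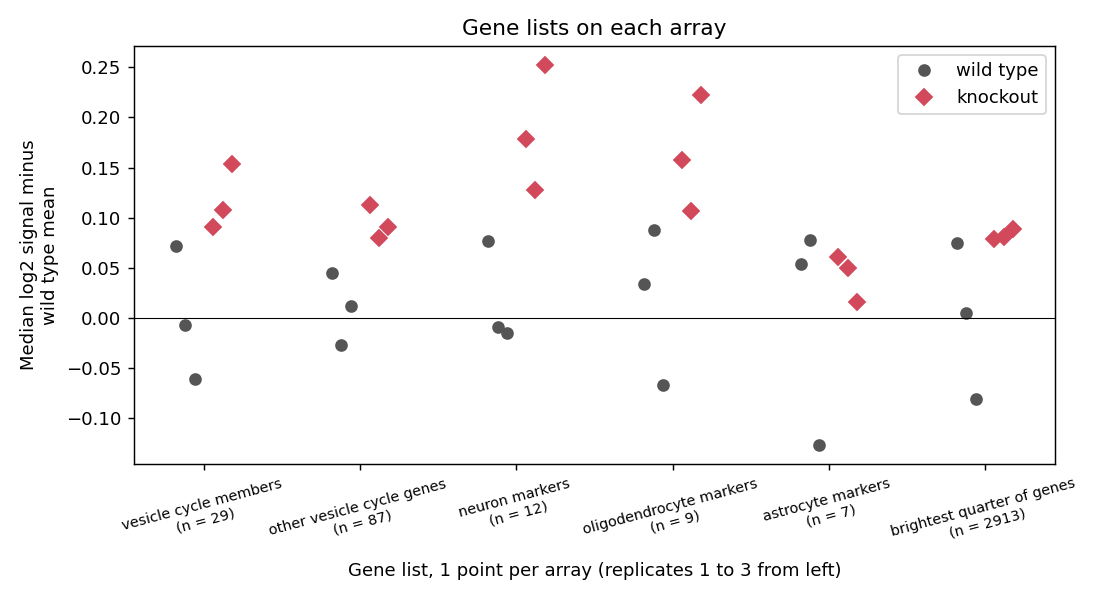
Median over each gene list of the log2 signal minus the wild type mean of the gene, with 1 point per array, grey circles for wild type and red diamonds for knockout. The diamonds of the vesicle cycle genes, at 0.091 to 0.15, lie above the circles, as they do for other vesicle cycle genes, neuron markers, oligodendrocyte markers and the brightest 25% of genes, while those of astrocyte markers overlap the circles.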

How the data were processed

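Total RNA of spinal cord from 6 mice, 3 per genotype, was read on 1 array each. The values the authors deposited are linear intensities per probe set, for which the submitters' processing notes name MAS 5.0 and GCOS 1.4, and their trimmed mean is the same on every array. The later GeneSpring 7.2 steps of the series' design text, with its filter on present calls, are not part of them. The median signal was 144 to 195 per array, and the number of arrays limits the precision. The labels do not state more on the animals. The p-values set the difference between genotypes against the spread of these samples within a genotype.

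Probe sets at or above the 50th percentile of their array on at least 2 of 3 arrays of a genotype were tested in limma 3.58.1 under R 4.3.3 (lmFit, eBayes with an intensity trend, two-sided, on log2 of the deposited intensity), with Benjamini-Hochberg adjustment over all 23546. Dividing by the array median, as could follow from the design text, lets dim probe sets set the scale and was an alternative. Names came from the platform annotation updated to a RefSeq table of GRCm38.p6. In it 34945 probe sets had 1 symbol, 932 several and 9160 none. The 30 genes, the lists and the rule for named genes were chosen with earlier results of these data known. All 30 genes are named, with values per array where a tested probe set had an unadjusted p under 0.05, where genotypes did not overlap at the brightest probe set, where probe sets of a gene went both ways by over 0.3, and for Snap25, Vamp2, Stx1a, Syt1 and Syp. Of the other vesicle cycle genes, up to 4 per direction with the smallest p are named; other genes of that list were named after their values were seen. In simulated arrays of 23546 probe sets, 3 against 3 as in this comparison of genotypes, the model found 11.5% of 1.5-fold and 35.6% of 2-fold changes after adjustment and 74.5% of 1.5-fold changes at an unadjusted p under 0.05. These rates are not given separately for the vesicle cycle genes, whose median spread within a genotype was 0.12, against 0.19 for all genes. Markers of Schwann cells, with 3 measured, summed to 1473 to 1746 in wild type and 1499 to 2028 in knockout, and those of blood, with 3 measured, to 441 to 706 in wild type and 549 to 579 in knockout. Unadjusted p-values are given only as under or over 0.05.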

Additional observations from a re-analysis of the deposited data

How the results depend on the processing

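The count of vesicle cycle genes past the adjusted threshold was 0 under every setting run, with a smallest adjusted p of 0.0924 in limma, reached without wild type replicate 3 and knockout replicate 2 together, a setting chosen after seeing the data. Probe sets past that threshold over the whole array numbered 1 in the main setting, 2 after division by the array median, 0 without the trend, 4 with the replicate block, 0 by the methods' t-test, 0 to 9 when 1 array was left out and 3 without those 2 arrays. In the main setting 6 genes were higher at an unadjusted p under 0.05 (limma). This count became 1 under quantile normalization and 1 without the trend, Ap2a1 both times. By the methods' t-test alone it was 5, namely Amph, Ap2a1, Nsf, Syt1 and Syt2. Only Ap2a1 and Nsf of these were among the 6. The count was 1 by that test with a fold of at least 1.2, and 2 to 6 when 1 array was left out. The count of lower genes, 0, became 1 under quantile normalization (Rab3a), 3 with the mean of all tested probe sets of a gene (Snap25, Syt4 and Unc13a), 0 to 1 when 1 array was left out and 1 without both arrays. Genes without overlap in either direction numbered 12 of 29 (all genes: 14.4%), 4 under quantile normalization (12.7%), 13 to 15 when 1 array was left out (20.7% to 33.0%) and 19 without both arrays (45.1%), since fewer arrays separate more easily. The median difference of the 29 genes minus that of all tested probe sets, 0.087, became 0.031 under quantile normalization, 0.19 without a filter, 0.14 and 0.048 with filters at the 25th and 75th percentile, and 0.069 to 0.12 when 1 array was left out; filters change which dim probe sets enter the comparison. Other vesicle cycle genes at an unadjusted p under 0.05, 14 in all, became 22 after division by the array median, 8 under quantile normalization, 7 without the trend, 3 by the methods' t-test with that fold, 5 to 21 when 1 array was left out and 22 without both arrays. The shares of all genes moved too, from 4.93% higher and 3.24% lower in the main setting to 13.7% and 0.824% after that division. Division by the array median moved the median of all tested probe sets from 0.0077 to 0.23 and put 28 of 29 genes above 0, while 21 lay above that shift. The cause of these differences between settings was not tested. The 6 genes kept a difference above 0 in all settings of limma, the replicate block included, and over all genes named 39 differences in other settings moved by more than the spread within a genotype and 453 did not. Same-numbered animals deviated from their group means with correlations of -0.034, 0.074 and 0.11, so the numbers of the labels are not taken as pairs; with the replicate block 6 genes were higher at an unadjusted p under 0.05.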
